A study of Penicillium oxalicum with 72 samples.

Results

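The transporter genes of *Penicillium oxalicum* with their highest expression on a cellulose substrate comprised 73 genes out of 269 transporter genes examined. They were taken from the transporter genes of a list of the study, without the cellodextrin transporter genes *CdtC* (*POX06051*) and *CdtD* (*POX05915*). The list holds genes that the study called differentially expressed between a carbon source and medium without carbon, from these same libraries. Membership was chosen by the measured values. For every gene, FPKM (mapped fragments of a gene, divided by its length in kilobases and by the mapped total of the library) was averaged over the 3 replicates of each of 24 conditions, and a gene was kept when its highest mean was found on Avicel (AV), methyl cellulose (MC) or 2-hydroxyethyl cellulose (HEC) and reached at least 1 FPKM. Of the remaining transporter genes, 65 were highest on wheat bran (WB), 125 were highest on glucose (GLU) or without carbon source (NC), and 6 did not reach 1 FPKM in any condition.

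All 72 libraries came from strain Δ*PoxKu70*, a deletion mutant of the wild-type strain HP7-1 that is used as a parental strain because foreign DNA integrates more precisely without Ku70, so every control carried this deletion too. Hyphae pre-grown on GLU were moved into fresh medium that held 1% (w/v) AV, MC, HEC, WB or GLU, or no carbon (NC), and were harvested at 4, 12, 24 and 48 h, with 3 libraries per condition. The paper calls the 3 libraries biological replicates, whereas the labels only number them, and p-values below measure the spread between these libraries. AV is insoluble microcrystalline cellulose, and MC and HEC are cellulose ethers.

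Filamentous fungi digest cellulose outside the cell with secreted cellulases and import the released cellobiose, cellodextrins and glucose through transporters of the plasma membrane. Most sugar carriers belong to the major facilitator superfamily (MFS), whose members move a solute along or against its gradient without hydrolysing ATP. ATP-binding cassette (ABC) proteins hydrolyse ATP, and many of those in fungi export drugs or lipids. CdtC and CdtD import cellodextrins in *P. oxalicum*.

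FPKM of a library summed to 924393–1255914, and a library listed 9243–9568 of the 9821 genes. The depth of single genes in reads was not used here, so that no counting error is given. The labels conflict in 13 libraries: all 12 HEC libraries are described as grown on methyl cellulose although their short names read HEC, and replicate 3 of NC at 24 h is described as 4 h. The short names were followed. The mean Pearson *r* of a library to the other 2 replicates over the tested genes was lowest in replicate 1 of AV at 12 h (0.963), followed by replicate 3 of GLU at 24 h (0.966), replicate 3 of AV at 12 h (0.967), replicates 1 and 2 of GLU at 24 h (0.968 and 0.970) and replicate 3 of NC at 4 h (0.976). Without replicate 1 of AV at 12 h the rule gave 74 genes, including all 73 members, and without replicate 3 of NC at 24 h it gave 73, again the same genes.

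By their protein signatures, 44 of the 73 members were MFS proteins without a sugar transporter signature, 19 were sugar transporter-like and 10 were ABC proteins. Sugar transporter-like genes thus made up 26% of the members, compared with 47.7% of the transporter genes highest on WB and 15.2% of those highest on GLU or NC. In numbers, these were 19 of 73, 31 of 65 and 19 of 125 genes, with 2 of the 6 genes under the limit. The share of the members lies between those of the 2 other groups and is not read as a trait of the members. The list gives 63 of the members no function beyond hypothetical protein. The named functions of 3 members do not describe a carrier of small molecules across the plasma membrane: *POX01198* is annotated as elongation factor 3, an ATPase of translation, *POX01640* belongs to ABC subfamily F, whose members lack membrane-spanning segments, and *POX01232* is annotated as peroxin-3, a factor of peroxisome formation. In the co-expression modules of the study, 8 members belong to MEivory and 2 to MEroyalblue. Because the modules were built from these same libraries, membership in a module is not independent evidence.

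The members were highest on AV in 29 cases, on HEC in 27 and on MC in 17. HEC at 48 h was the highest condition of 16 members, AV at 12 h of 13, AV at 24 h of 11, MC at 48 h of 8, MC at 4 h of 7 and HEC at 4 h of 6. Of the 10 ABC genes, 6 were highest on HEC, 3 on MC and 1 on AV. The highest condition mean of a member ranged from 1.34 to 6246 FPKM (median 73.3 FPKM), and 30 members reached 100 FPKM. The members did not share a common course over the 24 conditions. Pairs of members had a median Pearson *r* of 0.17 on log2 of the condition means plus 1, and 33.4% of the pairs had a negative *r*. This is a description across conditions that share media and time points. Where a difference given below involves the highest condition of a gene, its sign followed from that choice. Such differences and their p-values are likewise a description.

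**Figure D1:**
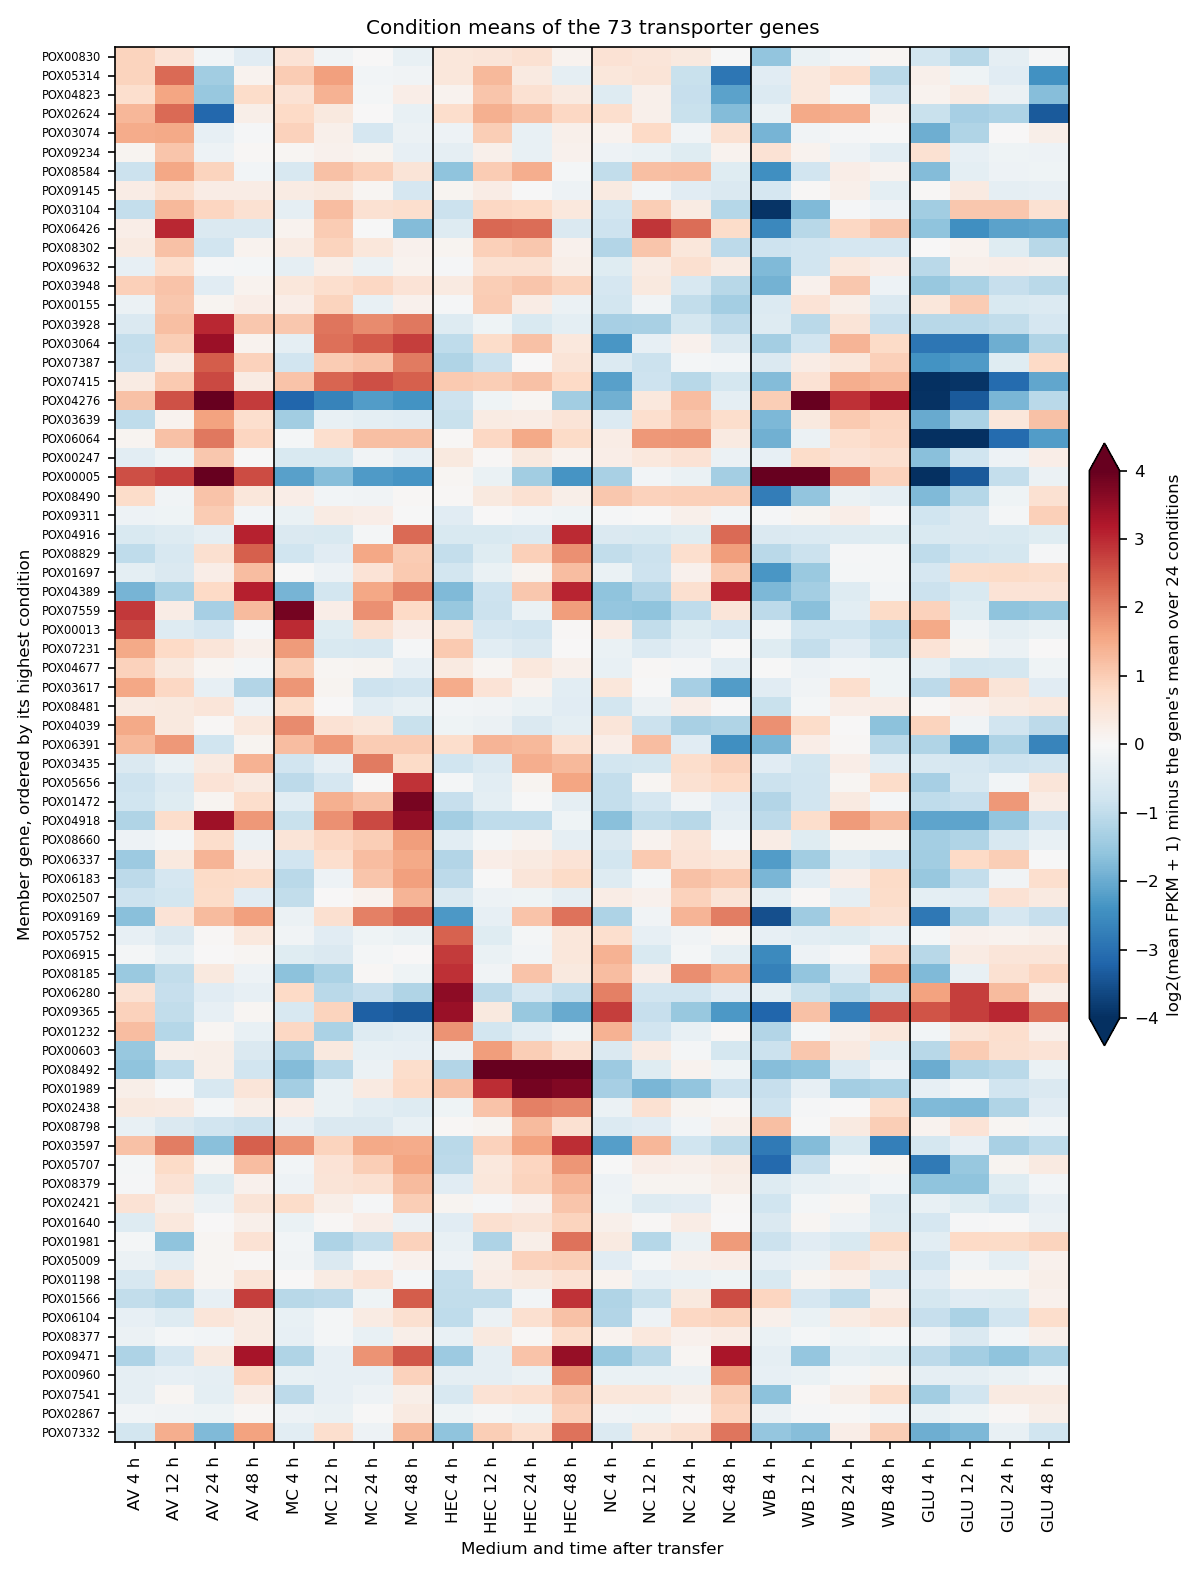
Condition means of the 73 members in 6 media (columns, 4, 12, 24 and 48 h each), as log2(mean FPKM + 1) minus the mean of the gene over the 24 conditions, with genes ordered by their highest condition and the colour scale ending at −4 and 4. The strongest blocks are *POX08492* and *POX01989* on HEC, *POX00005* and *POX04276* on AV and WB, and the group of *POX03064*, *POX03928*, *POX04918* and *POX07415* on AV at 24 h and on MC.

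For many members, the margin that placed them here was narrow. The ratio of the highest cellulose mean to the highest mean on WB, GLU or NC, each plus 1 FPKM, had a median of 1.39. It was 1.2 for the 2345 genes of the whole series that meet the same limits on their means. Those genes were not restricted to the list of differentially expressed genes, so the 2 medians are not like for like. The ratio was at least 2 for 24 members and at least 4 for 7. In 38 members, or 52.1%, all 3 libraries of the highest condition lay above all 3 of the highest other condition. The same held for 37.6% of the 2345 genes, and nothing is read from this share, since the rule used these values. Without carbon source was the highest other condition for 39 members, WB for 18 and GLU for 16. The smallest ratios were those of *POX07332* (118 ± 32.7 FPKM (SD, n = 3) on HEC at 48 h, 117 ± 20.0 FPKM on NC at 48 h), *POX00155* (70.0 ± 31.3 FPKM on AV at 12 h, 67.9 ± 9.44 FPKM on GLU at 12 h) and *POX03948*, annotated as an alpha-glucoside:proton symporter (176 ± 55.7 FPKM on AV at 12 h, 170.2 ± 46.5 FPKM on WB at 24 h). Just outside were *POX07606*, *POX00120* and *POX05847*, with 21.2, 439.9 and 6.55 FPKM on cellulose and 21.5, 447 and 6.69 FPKM on NC at 48 h. The lowest members by level were *POX02867*, *POX08377* and *POX09234*, with highest means of 1.34, 1.76 and 2.30 FPKM. None of the 6 transporter genes under the limit of 1 FPKM was highest on AV, MC or HEC.

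**Figure D2:**
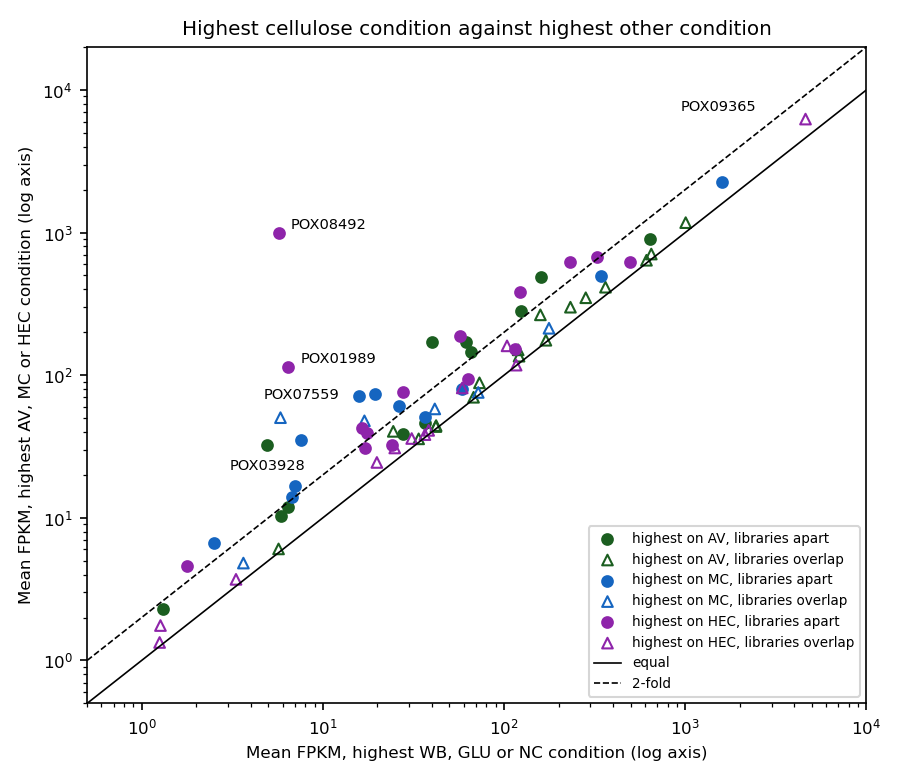
Mean FPKM of each of the 73 members in its highest AV, MC or HEC condition against its highest WB, GLU or NC condition, on log axes. Filled circles mark the 38 members whose libraries in both conditions lay apart, open triangles the others, and most points lie between the line of equality and the 2-fold line, with *POX08492* far above them.

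The members *POX08492* and *POX01989* were expressed on HEC far above every other medium. The sugar transporter-like gene *POX08492* had 131, 110 and 135 FPKM in the 3 HEC libraries at 12 h, 768, 864 and 1342 FPKM at 24 h and 261, 352 and 166 FPKM at 48 h. At 4 h its HEC libraries had 0.85, 2.86 and 1.34 FPKM. On AV it stayed between 0.59 and 6.62 FPKM, on MC between 0.71 and 10.2 FPKM, and its highest other mean was 5.70 FPKM on NC at 24 h. The 9 HEC libraries from 12 h on were thus all above all 60 libraries of the other media, while the 3 at 4 h were within their range.

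Compared with AV, *POX08492* was higher on HEC by 5.45 (SE 0.27, limma adjusted *p* = 0.000534) at 12 h, 7.08 (SE 0.20, adjusted *p* = 4.2e-07) at 24 h and 6.13 (SE 0.24, adjusted *p* = 1.71e-06) at 48 h on the log2(FPKM + 1) scale. At 4 h the difference was 0.37 (SE 0.28, adjusted *p* = 0.393). On MC it exceeded AV at 48 h by 1.46 (SE 0.14, adjusted *p* = 8.85e-05), with 7.99, 10.2 and 8.32 FPKM against 2.69, 2.78 and 2.25 FPKM.

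The MFS gene *POX01989* was also highest on HEC at every time point, but was not silent elsewhere. Its HEC libraries had 18.6, 19.6 and 13.3 FPKM at 4 h, 53.9, 49.8 and 77.0 FPKM at 12 h, 139, 106 and 95.0 FPKM at 24 h, and 75.5, 131 and 102 FPKM at 48 h. The highest library in any other medium had 16.1 FPKM (MC at 48 h), so that from 12 h on the HEC libraries were apart from all others. The difference from AV was 3.17 (SE 0.48, limma adjusted *p* = 0.0364) at 12 h, 4.49 (SE 0.18, adjusted *p* = 1.73e-06) at 24 h and 3.22 (SE 0.23, adjusted *p* = 3.52e-05) at 48 h. At 12 h, AV replicates 1, 2 and 3 had 2.32, 5.55 and 12.9 FPKM. On MC, *POX01989* was below AV at 4 h (−1.63, SE 0.23, adjusted *p* = 0.00398) and above it at 24 h (1.01, SE 0.14, adjusted *p* = 0.000348).

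**Figure D3:**
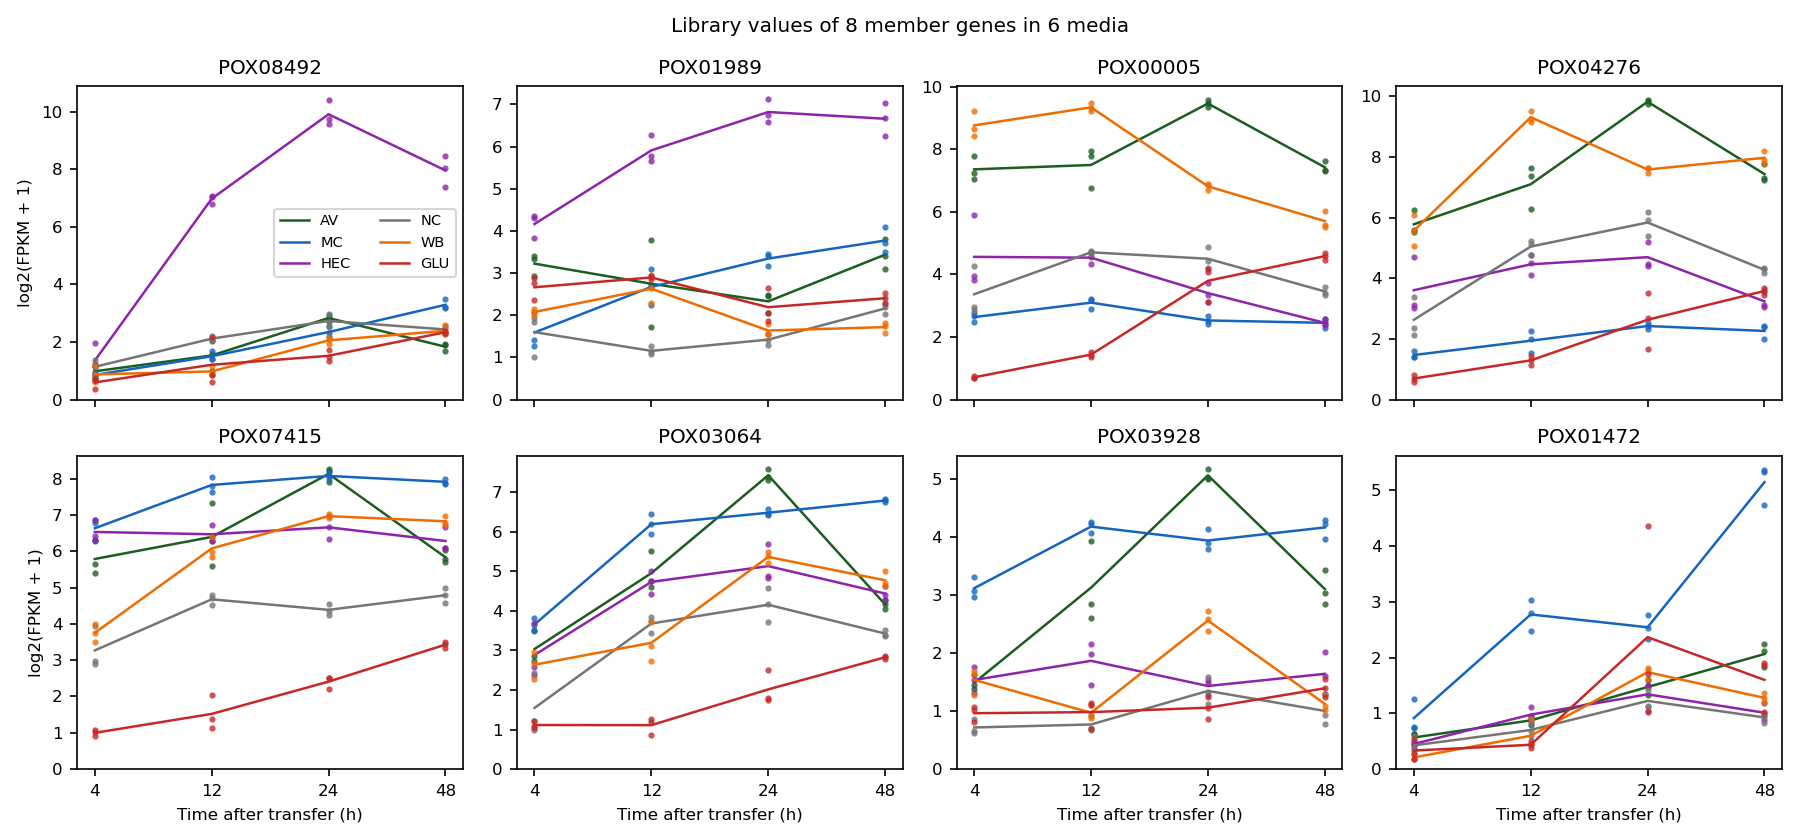
log2(FPKM + 1) of 8 members over time in 6 media, where points are libraries and lines join the means of 3 libraries. *POX08492* and *POX01989* are high on HEC, *POX00005* and *POX04276* on AV and WB but not on MC or HEC, and *POX07415*, *POX03064*, *POX03928* and *POX01472* on MC, the first 3 of these also on AV at 24 h.

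The opposite pattern among the cellulose substrates was found for the sugar transporter-like genes *POX00005* and *POX04276*, which were high on AV and WB and low on both cellulose ethers. *POX00005* had 131, 150 and 220 FPKM on AV at 4 h, 246, 218 and 108 FPKM at 12 h, 712, 764 and 645 FPKM at 24 h, and 156, 161 and 199 FPKM at 48 h. Its 12 MC libraries lay between 3.91 and 8.28 FPKM, below all AV libraries. Its WB libraries at 12 h had 716, 641 and 592 FPKM, which overlap with AV at 24 h, so that its place among the cellulose-high genes rests on a ratio of 1.09. *POX04276* had 910, 937 and 862 FPKM on AV at 24 h and 735, 613 and 563 FPKM on WB at 12 h, and here the libraries did not overlap.

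Both genes were lower on MC and on HEC than on AV at all 4 time points, which held for no other member. For *POX04276* the differences between MC and AV were −4.31, −5.16, −7.40 and −5.17 at 4, 12, 24 and 48 h on the log2(FPKM + 1) scale, and the highest limma adjusted *p* among them was 0.000562. At 24 h, *POX00005* was lower by −6.94 (SE 0.09, adjusted *p* = 7.43e-09) on MC and by −6.06 (SE 0.16, adjusted *p* = 3.38e-07) on HEC. *POX04276* was below NC on MC as well, with 4.70, 4.39 and 4.03 FPKM against 41.1, 72.4 and 59.5 FPKM at 24 h (−3.41, SE 0.19, adjusted *p* = 3.41e-06). Compared with NC, WB raised *POX00005* by 5.40 (SE 0.38, adjusted *p* = 1.59e-05) at 4 h and by 4.64 (SE 0.09, adjusted *p* = 1.84e-08) at 12 h. GLU lowered *POX00005* at 12 h by −3.27 (SE 0.09, adjusted *p* = 2.15e-07), to 1.68, 1.58 and 1.87 FPKM.

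The 8 members in MEivory, the module that the study related to cellulase and xylanase production, were *POX01472*, *POX03064*, *POX04918* and *POX07415*, all sugar transporter-like, and the MFS genes *POX03928*, *POX05656*, *POX07387* and *POX08660*. Their highest condition was AV at 24 h for *POX03064*, *POX03928*, *POX07387* and *POX07415*, and MC at 48 h for the remaining 4. In all 8, the libraries of the highest condition were apart from those of the highest WB, GLU or NC condition, with ratios of 2.25 to 5.67. Pairs of these 8 genes had a median *r* of 0.70 (lowest 0.27) over the 24 condition means, which the construction of a co-expression module favours.

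*POX07415* had 308, 295 and 241 FPKM on AV at 24 h and 288, 266 and 253 FPKM on MC at 24 h, and these 2 groups overlap. On AV it had only 53.8, 51.2 and 64.0 FPKM at 48 h, whereas MC kept 235, 255 and 232 FPKM. At 48 h, MC exceeded AV by 2.08 (SE 0.11, limma adjusted *p* = 5.3e-06), and at 24 h the difference was −0.06 (SE 0.10, adjusted *p* = 0.632). *POX07415* was the only member higher than NC at all 4 time points on each of AV, MC and HEC. On GLU it was below NC at every time point, by −2.27, −3.16, −1.98 and −1.36 at 4, 12, 24 and 48 h (highest adjusted *p* = 0.000477).

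In *POX03928* and *POX07387*, AV was above MC at 24 h and below it at 48 h, each past the thresholds, and *POX03064* had the same signs. *POX03064* had 191, 166 and 157 FPKM on AV and 93.7, 84.1 and 86.7 FPKM on MC at 24 h, but 17.0, 15.5 and 18.2 FPKM on AV and 112, 107 and 109 FPKM on MC at 48 h. Its difference between MC and AV was −0.95 (SE 0.09, limma adjusted *p* = 3.36e-05) at 24 h, under the 2-fold threshold, and 2.63 (SE 0.09, adjusted *p* = 8.71e-07) at 48 h. For *POX03928* it was −1.13 (SE 0.10, adjusted *p* = 3.67e-05) at 24 h and 1.06 (SE 0.16, adjusted *p* = 0.00108) at 48 h, and for *POX07387* −1.29 (SE 0.08, adjusted *p* = 4.19e-06) and 1.15 (SE 0.13, adjusted *p* = 0.000249). AV at 24 h was the highest condition of *POX03064*, *POX03928* and *POX07387*, so the sign at 24 h was fixed by that choice, whereas the sign at 48 h was not. In AV at 12 h, replicate 1 was the highest of the 3 libraries for *POX03064*, *POX03928*, *POX04918* and *POX07415*, for example 14.3 FPKM against 6.21 and 5.08 FPKM for *POX03928*. This library had the lowest *r* to its replicates over all tested genes.

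*POX01472* and *POX05656* were mainly expressed on MC at 48 h. *POX01472* had 39.3, 25.8 and 40.2 FPKM there, 4.07–7.21 FPKM on MC at 12 and 24 h, and 2.57, 3.72 and 3.34 FPKM on AV at 48 h. Its highest other mean, 7.62 ± 10.4 FPKM (SD, n = 3) on GLU at 24 h, came from replicate 2 with 19.6 FPKM, the other replicates having 2.27 and 1.04 FPKM. *POX05656* had 61.0, 81.5 and 71.6 FPKM on MC at 48 h, 37.0, 31.0 and 16.1 FPKM on HEC at 48 h and 12.7, 10.6 and 11.2 FPKM on AV at 48 h. Compared with AV at 48 h, *POX01472* was higher on MC by 3.08 (SE 0.19, limma adjusted *p* = 1.15e-05) and *POX05656* by 2.53 (SE 0.12, adjusted *p* = 4.85e-06). *POX08660* was higher by 1.92 (SE 0.09, adjusted *p* = 4.28e-06), with 63.3, 64.1 and 56.3 FPKM on MC. As MC at 48 h was the highest condition of these genes, the sign was fixed by that choice, and the differences are a description.

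*CdtC* was used as the reference for likeness, as a gene whose product is known to import cellodextrins. The 5 members with the highest Pearson *r* to *CdtC* over the 24 condition means of log2(FPKM + 1) were *POX07415* (0.93), *POX03064* (0.84), *POX03928* (0.79), *POX04918* (0.74) and *POX03948* (0.71). The first 4 of them are MEivory members, and so is *CdtC* itself. Because that module was built by co-expression in these same libraries, this overlap is not independent evidence. Over all members the median *r* to *CdtC* was 0.26, with 2 members at 0.8 or above and 11 below 0, the lowest being *POX06280* (−0.50). Over all tested genes the median was −0.12, and 31 genes other than *CdtC* were at 0.8 or above. Nothing is read from the difference, since the rule chose members high on cellulose substrates, where *CdtC* is high too. The 24 means share media and time points, so that these values are a description. In level, *CdtC* was far higher than any of the 5, with 17070, 15780 and 16139 FPKM on AV at 24 h.

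Several of the most abundant members were close to their highest level in other media too. The MFS gene *POX09365* was the most abundant member, with 6330, 5606 and 6803 FPKM on HEC at 4 h. However, it had 5734, 4819 and 959 FPKM on NC at 4 h and 3714, 5687 and 4436 FPKM on GLU at 24 h. From 4 to 48 h it fell by 5.59 (SE 0.32, limma adjusted *p* = 9.05e-07) on HEC and by 4.72 (SE 0.65, adjusted *p* = 0.000706) on NC, whereas its GLU libraries remained between 2600 and 5687 FPKM. *POX06391* had 2374, 2234 and 2223 FPKM on MC at 12 h and 1169, 1695 and 1907 FPKM on NC at 12 h, and *POX03104* had 928, 1135 and 1458 FPKM on AV at 12 h, with 622, 847 and 1550 FPKM on GLU at 24 h. The libraries of *POX03104* overlapped between these conditions, and those of *POX06391* did not.

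HEC at 4 h was the highest condition of 6 members, and NC at 4 h or later was the highest other condition for 4 of them. *POX08185* had 450, 699 and 887 FPKM on HEC at 4 h, 27.1, 30.7 and 36.5 FPKM on AV and 28.5, 21.3 and 33.3 FPKM on MC. Its NC libraries at 4 h had 223, 271 and 140 FPKM, so that AV and MC were below NC and HEC was above it. The difference between HEC and AV at 4 h was 4.34 (SE 0.24, limma adjusted *p* = 0.000154) for *POX08185*, 2.87 (SE 0.20, adjusted *p* = 0.000413) for *POX06915*, 2.56 (SE 0.35, adjusted *p* = 0.00727) for *POX05752* and 2.96 (SE 0.25, adjusted *p* = 0.000712) for the ABC gene *POX06280*. These genes were grouped by their highest mean on HEC at 4 h, so the sign was fixed by that choice. The differences are a description. *POX06280* had 19.2, 32.5 and 40.5 FPKM on HEC at 4 h and at most 0.99 FPKM in any HEC library from 12 h on. *POX01232* had 147, 143 and 167 FPKM on HEC at 4 h and a mean of 115 ± 14.3 FPKM on NC at 4 h (SD, n = 3).

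Within some conditions a single library carried the highest values. All 7 members that were highest on MC at 4 h had their highest value in replicate 2, while 28.7% of all tested genes had theirs in that library. *POX07559* had 28.5, 113 and 9.55 FPKM there, and *POX00013* had 31.3, 103 and 9.56 FPKM. Without replicate 2, the rule gave 72 genes, and MC at 4 h was the highest condition of 1 of them. For HEC at 4 h, all 6 members were highest in replicate 3, as were 13.3% of all tested genes, but without it all 73 members were kept and 6 genes were still highest there. For AV at 12 h, 10 of 13 members were highest in replicate 3, as were 23.5% of all tested genes, 2 in replicate 2 and 1 in replicate 1. Without replicate 3 the rule gave 71 genes, of which 7 were highest on AV at 12 h. *POX05314*, annotated as a carrier of the DHA1 drug exporter family, had 243, 462 and 756 FPKM there and its highest other mean was 159 ± 21.6 FPKM (SD, n = 3) on WB at 24 h. *POX02624* had 93.2, 262 and 439 FPKM there.

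Among the 10 ABC genes, *POX03597* had the highest ratio, with 205, 535 and 406 FPKM on HEC at 48 h and a highest other mean of 123 ± 62.5 FPKM (SD, n = 3) on NC at 12 h. It was also variable, for example 208, 105 and 16.8 FPKM on AV at 4 h and 98.3, 392 and 19.3 FPKM on MC at 4 h. *POX09169* had 214, 218 and 208 FPKM on MC at 48 h and a mean of 177 ± 27.6 FPKM on NC at 48 h (SD, n = 3). *POX02507* and *POX06337*, of the subfamily G that holds many pleiotropic drug exporters of fungi, were highest on MC at 48 h, with 84.4, 91.3 and 64.2 FPKM and 54.3, 73.3 and 46.4 FPKM. They exceeded AV at 48 h by 1.79 (SE 0.16, limma adjusted *p* = 6.06e-05) and 1.19 (SE 0.18, adjusted *p* = 0.000944). *POX08584* of subfamily B had 295, 365 and 386 FPKM on AV at 12 h and 283 ± 45.2 FPKM on NC at 24 h. The translation factor *POX01198* had 517, 647 and 699 FPKM on HEC at 48 h, and *POX01640* 106, 193 and 183 FPKM. The peptide transporter *POX01981* had 69.7, 78.5 and 96.0 FPKM on HEC at 48 h, and *POX04677*, annotated as a toxin efflux carrier, 14.5, 15.2 and 12.1 FPKM on MC at 4 h.

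For the comparisons, 69 of the 73 members averaged 1 FPKM or more across the 72 libraries and entered the limma test with the other genes that did so, 8898 genes in all. *POX00960*, *POX02867*, *POX08377* and *POX09234* did not pass this filter. A gene was called when its unadjusted *p* did not exceed 0.05 and its groups differed 2-fold or more, the thresholds of the study. FPKM was not rescaled between libraries. Rescaling by the median of ratios moved the median log2 difference of all genes by −0.44 to 0.39, and by more than 0.1 in 25 of the 32 comparisons, so that counts of higher and lower members are relative to this scale. The rule used the means of all 24 conditions, and its starting list held genes that the study had already called against NC in these libraries. All tested genes were not selected in this way. The counts of members below are therefore a description, given beside the share of all tested genes. No excess over that share is read as a property of the members.

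Compared with NC, AV had 18, 15, 11 and 20 members higher at 4, 12, 24 and 48 h, while 4.24, 3.17, 4.12 and 5.95% of all tested genes were called higher. MC had 17, 13, 16 and 22 members higher, with 4.96, 4.47, 5.95 and 4.32% of all genes. HEC had 11, 9, 15 and 20 members higher, with 2.75, 2.53, 3.45 and 4.96% of all genes. Lower than on NC were 4, 2, 5 and 3 members on AV, beside 5.10, 7.19, 6.27 and 8.92% of all genes. On MC 7 members were lower at each time point, beside 8.22, 9.54, 18.2 and 14.5%, and on HEC 6, 0, 3 and 3, beside 6.90, 1.56, 4.64 and 3.48%. After rescaling, 20, 21, 11 and 22 members were higher and 2, 0, 5 and 1 lower on AV, 21, 17, 25 and 28 higher and 6, 4, 6 and 3 lower on MC, and 19, 10, 16 and 22 higher and none lower on HEC. The counts of lower members also changed with single libraries, for example from 4 to 8 on AV at 4 h without replicate 3 of NC, from 6 to 2 on HEC at 4 h without replicate 2 of NC, from 3 to 1 on HEC at 24 h without replicate 1 of HEC, from 3 to 0 on HEC at 48 h without replicate 3 of HEC and from 2 to 1 on AV at 12 h without replicate 3 of AV. The higher calls sum to 64 calls in 28 genes on AV, 68 in 32 genes on MC and 55 in 29 genes on HEC. Higher on AV at all 4 time points were *POX00005*, *POX04276* and *POX07415*, on MC *POX03064*, *POX03928* and *POX07415*, and on HEC *POX01989* and *POX07415*. The shares of all tested genes called at 1 or more or at all 4 time points were not determined, nor were the shares after rescaling. Nothing is therefore read from these counts. The comparisons share the NC libraries. Same-numbered libraries deviated together in AV and NC at 12 h, and with the replicate block 15 members were again called higher there.

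The largest differences from NC were 7.18 (SE 0.21, limma adjusted *p* = 8.78e-07) for *POX08492* on HEC at 24 h, 4.96 (SE 0.17, adjusted *p* = 5.68e-07) for *POX00005* on AV at 24 h and, among called members with libraries apart on MC, 4.72 (SE 0.73, adjusted *p* = 0.00256) for *POX07559* at 4 h. These are given as a description, because the rule used them. In some members, a high level on 1 cellulose substrate did not go with a high level on all. *POX08185* was below NC at all 4 time points on AV and on MC, although its difference on AV at 12 h was under 2-fold after rescaling. *POX06426* was below NC at 24 h on AV (−2.96, SE 0.45, adjusted *p* = 0.00133) and at 12, 24 and 48 h on MC.

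As a reference, 20 genes of cellulose degradation were followed, comprising cellulase genes such as *Cel7A-2* (*POX05587*) and *Cel6A* (*POX04786*), *CdtC* and *CdtD*, and the regulator genes *ClrB*, *ClrB-2*, *ClrA* and *XlnR*. Most of these genes belong to MEivory, which the study built from these same libraries. They are therefore not an independent reference, and their values beside those of the members are a description. Of these, 15, 15, 17 and 16 were higher on AV than on NC at 4, 12, 24 and 48 h, 16, 17, 18 and 18 on MC and 15, 13, 12 and 12 on HEC, and none was lower. Their median log2 difference from NC was 5.74 on AV at 24 h and 1.36 on HEC at 24 h. For the tested members, the corresponding medians were 0.13 and 0.21, beside −0.06 and −0.26 over all genes. Compared with AV at 4 h, 9 of the 20 genes were higher and 2 lower on HEC, beside 1.22 and 2.36% of all genes. At 12, 24 and 48 h, 10, 15 and 12 were lower on HEC, beside 0.865, 6.43 and 2.74% of all genes, and none was higher.

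In the comparisons of MC and of HEC with AV, 49 of the 69 tested members were called at 1 or more time points, and 20 were not called. MC and HEC were not compared with each other at single time points. At least 1 call was also made for 31.5% of all tested genes. Between MC and AV, 2, 6, 15 and 12 members were higher on MC at 4, 12, 24 and 48 h, beside 1.10, 1.82, 5.97 and 3.43% of all genes. Lower on MC were 4, 6, 10 and 8 members, beside 1.89, 2.0, 12.1 and 8.22% of all genes. The median log2 difference of the members at 24 h was −0.06, compared with −0.35 over all genes. After rescaling, 20 members were higher and 4 lower at 24 h, and 14 higher and 5 lower at 48 h, so the split moved towards MC.

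The summed FPKM of 6 conidiation genes (*BrlA*, *AbaA* and 4 genes of spore pigment synthesis), a sign of another cell type in the culture, was 606–658 on MC at 24 h and 96.7–102 on AV at 24 h. Their part in these comparisons was not tested. In bulk samples, fewer cells of a type and less RNA per cell cannot be told apart. On HEC and NC at 24 h the sum was 158–232 and 97.5–151, so that it also differed between MC and NC and between HEC and AV at this time, and at 12 h it was 58.7–77.5 on MC, 36.3–51.4 on HEC, 21.2–44.3 on AV and 34.1–42.9 on NC. At 48 h the corresponding ranges were 681–724 on MC, 1044–1207 on HEC and 879–1003 on AV.

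Members higher on MC than on AV at 24 h were led by the sugar transporter-like *POX02624* (3.28, SE 0.31, limma adjusted *p* = 4.33e-05) and the ABC gene *POX03597* (3.18, SE 0.19, adjusted *p* = 4.21e-06). *POX03597* had 121, 125 and 177 FPKM on MC and 11.8, 13.9 and 18.3 FPKM on AV at 24 h. At 48 h *POX01472* and *POX03064* led, as given above, and at 4 h *POX03928* (1.63, SE 0.14, adjusted *p* = 0.000442) and *POX09169* (1.43, SE 0.12, adjusted *p* = 0.000461). At 12 h, *POX01472* was higher on MC by 1.90 (SE 0.20, adjusted *p* = 0.00512), and *POX09365* by 1.94 (SE 0.41) with an adjusted *p* of 0.0627. With adjusted *p*, 1 and 3 members were called higher and lower on MC at 12 h in place of 6 and 6, where replicate 1 of AV had the lowest *r* to its replicates. Without that library the counts were 7 and 8. *POX00005* and *POX04276* had the 2 largest negative differences of MC from AV among the members at each time point.

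**Figure D4:**
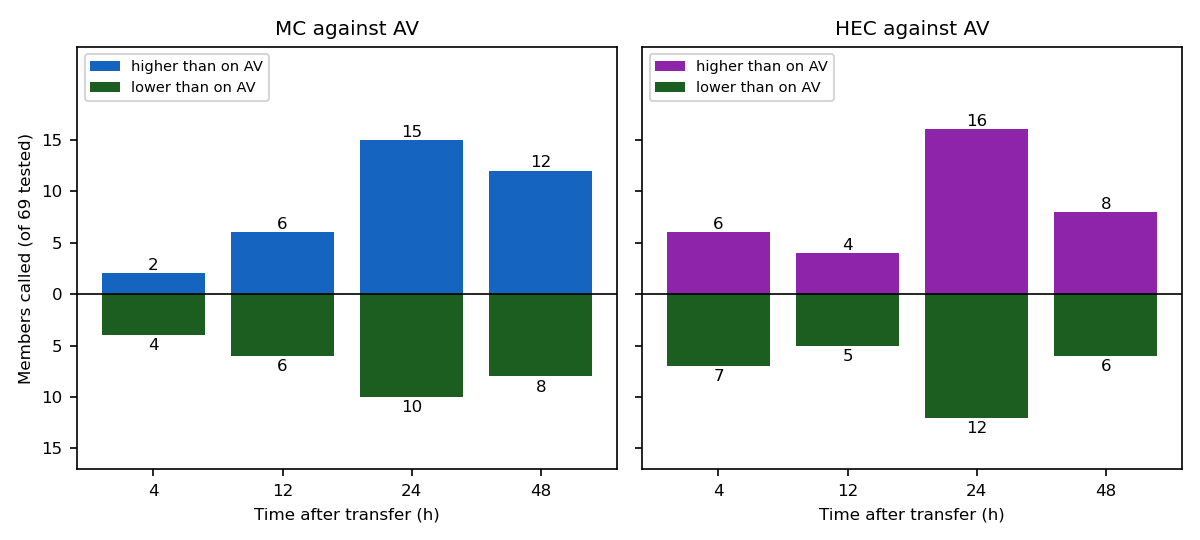
Number of the 69 tested members called higher (above 0) or lower (below 0) on MC and on HEC than on AV at 4, 12, 24 and 48 h. The most members differed at 24 h, 15 higher and 10 lower on MC and 16 higher and 12 lower on HEC. All tested genes were also called most often at 24 h, with 5.97% higher and 12.1% lower on MC and 6.51% higher and 6.43% lower on HEC.

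Between HEC and AV, 6, 4, 16 and 8 members were higher on HEC at 4, 12, 24 and 48 h, beside 1.22, 0.989, 6.51 and 3.71% of all genes. Lower were 7, 5, 12 and 6 members, beside 2.36, 0.865, 6.43 and 2.74%. At 24 h, the split was 17 higher and 8 lower after rescaling. At 12 h, 10 members were lower on HEC without replicate 1 of AV in place of 5. Apart from *POX08492* and *POX01989*, the largest rises were those of *POX08185* at 4 h, given above, and of *POX02624* at 24 h (4.30, SE 0.48, limma adjusted *p* = 0.000263). Of the MEivory members, *POX03064*, *POX03928*, *POX04918*, *POX07387* and *POX07415* were all lower on HEC than on AV at 24 h. *POX04918* had 80.7, 68.5 and 49.2 FPKM on AV and 1.72, 2.31 and 2.48 FPKM on HEC (−4.38, SE 0.19, limma adjusted *p* = 2.77e-06). *POX07559* was lower on HEC at 4 h (−3.73, SE 0.81, adjusted *p* = 0.0278), with 0.47, 0.04 and 0.29 FPKM against 48.6, 23.1 and 2.87 FPKM on AV.

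Between 4 and 48 h, 23 members rose and 10 fell on AV, 31 rose and 12 fell on MC, and 31 rose and 9 fell on HEC. Of all tested genes, 16.9, 16.9 and 25.1% rose and 7.86, 12.2 and 7.48% fell on AV, MC and HEC. On NC, without any carbon source, 22 members rose and 10 fell, beside 20.9 and 9.59% of all genes. The median log2 difference of the members was 0.39 on AV, 0.52 on MC, 0.56 on HEC and 0.42 on NC, compared with 0.36, 0.12, 0.45 and 0.29 over all genes. After rescaling, 18 members rose and 15 fell on AV, 26 and 15 on MC, 26 and 10 on HEC and 20 and 12 on NC. The medians of the members were then 0.07 on AV, 0.41 on MC, 0.24 on HEC and 0.15 on NC. On all 3 cellulose substrates 17 members rose and 3 fell, the latter being *POX01232*, *POX03617* and *POX07231*. The share of all tested genes called in the same direction on all 3 was not determined. How many of these members also rose or fell on NC was not determined either. Nothing is therefore read from these joint counts. The change itself differed between HEC and AV in 30 members, between HEC and MC in 43 and between MC and AV in 28 (limma over 18 libraries, adjusted *p* of at most 0.05), beside 26.9, 43.2 and 39.5% of all genes.

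The conidiation genes moved with time as well, from 12.9–16.3, 11.5–15.3, 13.0–17.0 and 13.4–20.3 summed FPKM at 4 h to 879–1003, 681–724, 1044–1207 and 846–1027 at 48 h on AV, MC, HEC and NC. On GLU and WB at 48 h the sum was 47.4–50.3 and 59.6–61.9. The part of conidiation in the changes over time was not tested.

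Some members reached similar levels at 48 h on AV, HEC and NC. The MFS gene *POX04389* had 46.8, 43.6 and 42.6 FPKM on AV, 42.0, 46.5 and 39.2 FPKM on HEC and 48.7, 39.3 and 38.6 FPKM on NC, but 20.0, 20.6 and 20.5 FPKM on MC. It rose by 4.97 (SE 0.12, limma adjusted *p* = 6.27e-09) on AV and by 4.65 (SE 0.14, adjusted *p* = 5.38e-07) on NC. The sugar transporter-like *POX09471* rose by 4.93 (SE 0.13, adjusted *p* = 7.51e-09) on HEC and 4.76 (SE 0.16, adjusted *p* = 8.46e-07) on NC, and its libraries at 48 h had 38.4, 35.9 and 33.6 FPKM on HEC and 36.3, 30.2 and 26.3 FPKM on NC. The libraries of these genes overlapped between the cellulose substrate and NC. Both were lower on WB than on NC at 48 h, *POX09471* by −3.74 (SE 0.13, adjusted *p* = 1.63e-06) and *POX04389* by −3.16 (SE 0.11, adjusted *p* = 1.79e-06).

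On MC the largest rises were those of *POX04918* (4.45, SE 0.18, limma adjusted *p* = 4.98e-08) and *POX01472* (4.23, SE 0.21, adjusted *p* = 1.79e-07), from 0.66, 1.40 and 0.68 FPKM at 4 h for *POX01472*. On HEC, *POX08492* rose by 6.61 (SE 0.32, adjusted *p* = 3.15e-07). Among the falls, *POX03617* decreased by −2.72 (SE 0.12, adjusted *p* = 2.73e-07) on AV, and *POX06280* by −4.47 (SE 0.25, adjusted *p* = 8.07e-07) on HEC. *POX04039* decreased by −2.77 (SE 0.18, adjusted *p* = 1.16e-06) on MC.

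**Figure D5:**
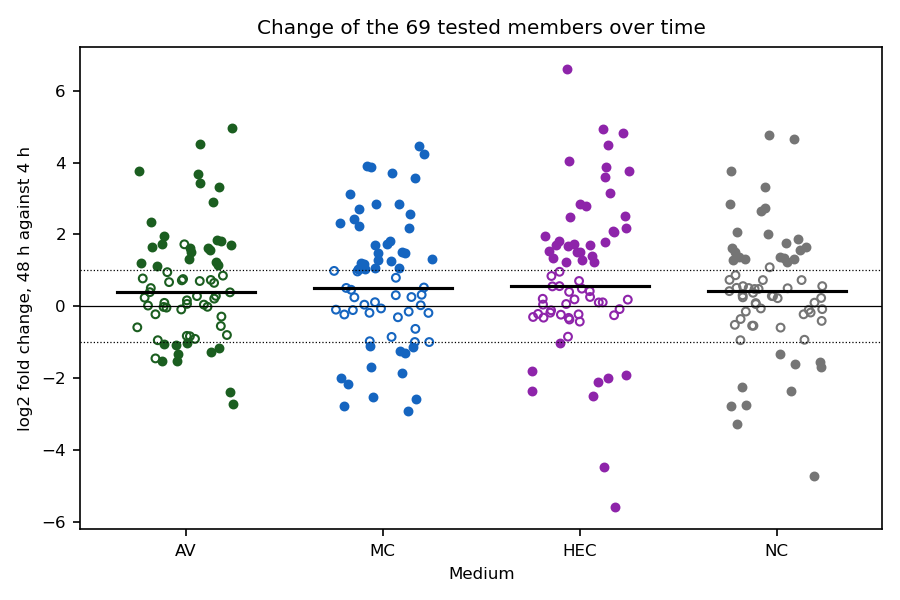
log2 fold change at 48 h against 4 h of the 69 tested members on AV, MC, HEC and NC, where filled points were called, open points were not, black lines are medians and dotted lines mark 2-fold. The medians are 0.39, 0.52, 0.56 and 0.42 on FPKM as deposited, but 0.07, 0.41, 0.24 and 0.15 after rescaling. *POX08492* on HEC (6.61) and *POX09365* on HEC (−5.59) are the extremes.

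GLU and WB were compared with NC to describe the low side of the members. On GLU, 6, 8, 3 and 6 members were higher than on NC at 4, 12, 24 and 48 h, beside 7.78, 7.52, 4.93 and 5.27% of all genes. Lower were 22, 26, 17 and 13 members, beside 17.5, 18.4, 15 and 9.10% of all genes. Without replicate 3 of NC at 4 h, 2 members were higher at 4 h in place of 6, and without replicate 3 of GLU at 24 h, 5 in place of 3. At 12 h, 14 members were higher and 21 lower after rescaling. *POX06064*, *POX07415* and *POX09169* were below NC at all 4 time points. The sugar transporter-like *POX06064* had 4.24, 3.14 and 2.58 FPKM on GLU at 12 h and 193, 243 and 260 FPKM on NC (−5.76, SE 0.17, limma adjusted *p* = 2.34e-07). Of the 18 sugar transporter-like members tested, 8, 13, 8 and 6 were lower on GLU, and 1 was higher, at 48 h, which was *POX00005* (1.13, SE 0.10, adjusted *p* = 7.7e-05). *POX09365* was higher on GLU than on NC by 3.82 (SE 0.35, adjusted *p* = 4.84e-05) at 12 h and 4.57 (SE 0.29, adjusted *p* = 4.11e-05) at 24 h.

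On WB, 8, 8, 12 and 13 members were higher than on NC, beside 11.9, 6.93, 5.80 and 4.50% of all genes, and 25, 14, 10 and 12 were lower, beside 21.7, 10.1, 11.1 and 6.36%. At 24 h, 13 were higher and 5 lower after rescaling. *POX00005* and *POX04276* were higher at all 4 time points, and *POX06337* and *POX08490* were lower at all 4. The MEivory members *POX04918* and *POX07415* were higher on WB at 24 h by 2.80 (SE 0.16, limma adjusted *p* = 6.26e-06) and 2.58 (SE 0.09, adjusted *p* = 6.06e-07). *POX09365* was lower than on NC at 4 h, with 55.8, 66.2 and 65.2 FPKM (−5.56, SE 0.60, adjusted *p* = 0.000122), and higher at 48 h, with 3003, 3208 and 3941 FPKM (4.89, SE 0.20, adjusted *p* = 3.73e-06). Without replicate 3 of NC at 24 h, whose wording gives another time, 13 and 8 members were higher and lower on WB at 24 h, and 3 and 17 on GLU.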

How the data were processed

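Per the labels and the study's methods, the authors sequenced RNA of 72 samples on the BGISEQ-500 platform, aligned the reads to strain HP7-1 and deposited FPKM of each gene, calculated with RSEM 1.2.12. The deposited FPKM are divided by gene length and mapped reads, without further scaling between libraries. Genes missing from a library were set to 0. The authors tested with DESeq2, which takes reads and was not used here. Instead, limma 3.58.1 (R 4.3.3) was applied to log2(FPKM + 1) of the 6 libraries of a comparison, with a mean-dependent variance trend and Benjamini-Hochberg adjustment over 8898 genes. A fold change on this scale understates the change of weakly expressed genes. The limma step was tested on simulated data. Means and counts were computed with Python 3.11.15 and pandas 2.3.3. Protein signatures and functions come from the list of the study, in which sugar transporter-like genes carry a sugar transporter signature. Gene numbers of the files could not be paired with the annotation at hand, and no coordinates or sequences are given.

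Members and gene lists were chosen with earlier results of these data known. Named genes are the 10 members with the highest means, the 10 with the highest ratios, MEivory members, members with a named function, up to 2 rises and 2 falls per comparison with libraries apart, members next to the limits and the 5 most like *CdtC*. Not all of them are described. Same-numbered libraries deviated together, with *r* above 0.1 for all 3 numbers, in 1 of 32 comparisons (AV and NC at 12 h, *r* = 0.642, 0.165 and 0.475 for replicates 1, 2 and 3). Alternatives were a pseudocount of 0.1, no filter, rescaling by the median of ratios, adjusted *p*, all 72 libraries in the same fit, a replicate block and leaving out each library. Leaving out single libraries from the rule was chosen after seeing the data. The difference in change over time between media was fitted with limma on the 18 libraries of AV, MC and HEC at 4 and 48 h.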

Additional observations from a re-analysis of the deposited data

Results flagged for a closer look

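For 2 members the change from 4 to 48 h went in opposite directions on different cellulose substrates, each past the thresholds, and differed by a limma test of the difference itself over 18 libraries. *POX08185* fell on HEC (−2.49) and rose on AV (1.23) and MC (1.49). The difference was −3.71 (SE 0.34, limma adjusted *p* = 5.86e-07) between HEC and AV and −3.97 (SE 0.34, adjusted *p* = 2.99e-07) between HEC and MC. *POX07559* rose on HEC (3.17) and fell on MC (−2.59), a difference of 5.76 (SE 1.27, adjusted *p* = 0.00165), and its MC libraries at 4 h had 28.5, 113 and 9.55 FPKM.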

How the results depend on the processing

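The number of members was 78 with medians of replicates, 98 after rescaling by the median of ratios (70 of the 73 kept), 67 with a limit of 5 FPKM and 72–76 without replicate 1, 2 or 3. Of the 22 sums of member calls, 20 stayed within 1.5 times their main value under each alternative and without each library. The exceptions were the calls lower than on NC, where rescaling gave 8 calls in place of 14 on AV and 0 in place of 12 on HEC (on MC, 19 in place of 28). These 3 sums were added after seeing the data. Without each library in turn they were 13–18 on AV, 26–29 on MC and 8–13 on HEC. Calls higher than on NC ranged from 59 to 68 on AV when 1 library was left out (64 in the main analysis). With the replicate block the sums were 64, 68 and 56 on AV, MC and HEC higher than on NC and 14, 28 and 12 lower, and it changed no sum by over 1.5 times. In all comparisons but AV against NC at 12 h, same-numbered libraries did not deviate together for all 3 numbers. Single numbers did in some, for example in AV against NC at 4 h (*r* = 0.421, 0.049 and 0.411 for replicates 1, 2 and 3). The labels do not say whether same-numbered libraries were handled together. Calls lower on MC than on AV fell from 28 to 19 after rescaling, and those higher rose from 35 to 42. Of 126 named fold changes, none changed sign in 1260 refits and 10 no longer passed the thresholds in 23 of them, for example *POX04276* on HEC against NC at 24 h after rescaling. Depth in reads was not used, and members near 1 FPKM rest on little signal.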
